A study of Mus musculus with 6 samples.

Results

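Malat1, Neat1, Gas5, Snhg1, Snhg3, Snhg12, Tug1 and Pvt1 are long noncoding RNA genes of the mouse, chosen by symbol, and all 8 were found among the 52636 gene identifiers of the count files. E14, an embryonic stem cell line of the mouse, had been differentiated for 4 days with retinoic acid (5 in the unit the labels print, µm) after withdrawal of LIF and the 2 kinase inhibitors that keep stem cells undifferentiated. There were 3 RNA-seq libraries of enhancer cluster knockout cells and 3 of wild-type cells, described as biological replicates. The title of the series ties the enhancer cluster to activation of the HoxB genes and to the formation of neural progenitors, and the series' text calls the cells NPC. Both groups had the same cell line, the same retinoic acid treatment and the same day. How many knockout clones were used and where the deletion lies are not given in the sources used here, so no deleted gene could be checked.

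Long noncoding RNAs are transcripts with no known protein product, and these 8 fall into 3 kinds. Malat1 and Neat1 are long, mostly unspliced RNAs kept in the nucleus: Malat1 gathers at nuclear speckles, where splicing factors are stored, and Neat1 is the scaffold of paraspeckles. Gas5, Snhg1, Snhg3 and Snhg12 are snoRNA host genes, whose introns are processed into small nucleolar RNAs that guide chemical modification and processing of ribosomal RNA, and whose spliced exons are degraded on ribosomes by nonsense-mediated decay. Tug1 is a broadly expressed spliced RNA, and Pvt1 is transcribed from a long gene beside the Myc oncogene.

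Of the 8 genes, Malat1, Neat1, Snhg1 and Snhg12 rose in the knockout, Gas5, Snhg3 and Tug1 fell, and Pvt1 did not pass the test. Thus 4 were higher, 3 were lower and 1 was not called, at an adjusted p of 0.05 in edgeR's quasi-likelihood test over all 15816 genes tested. In that same test 68.6% of all genes were called, 34.5% higher and 34.0% lower, so a call is the usual outcome here. The log2 fold changes (knockout over wild type) ran between -1.004 for Snhg3 and 1.00 for Malat1, with a median of 0.41 over the 8 genes against 0.01 over all genes tested. The 3 knockout libraries and the 3 wild-type libraries did not overlap for any of the 8 genes, which was also so for 70.9% of all genes tested (35.5% with the knockout above and 35.4% with it below).

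Libraries held between 7780368 and 8521902 gene counts in the knockout and between 8208615 and 9472916 in the wild type. Mitochondrial genes took 2.58 to 2.89% of the gene counts in the knockout and 1.675 to 1.73% in the wild type. Knockout library 1 stood apart with 1.04% of its counts on rRNA-repeat genes, against 0.0727 to 0.118% in the other libraries, and without it the same 7 of the 8 genes were called in the same direction. Marker lists of other cell types moved with the groups: of 10 endoderm markers 7 were higher and 1 was lower, with a summed level of 4411 to 4507 CPM (reads of a gene scaled to a common library size) in the knockout and 1428 to 1446 CPM in the wild type. Most of that sum was Lamb1, at 2900 CPM in the knockout and 875 CPM in the wild type, and Cubn, at 1038 CPM in the knockout and 222 CPM in the wild type. Of 10 neural progenitor markers, 8 were tested, 3 were higher and 4 lower, and they summed to 324 to 342 CPM in the knockout and 1401 to 1445 CPM in the wild type, with Fabp7 at 0 counts in all libraries and Sox1 at a mean of 1.84 CPM in the knockout and 1.98 CPM in the wild type. Vim, Nes, Cdh2 and Sox3 were the lower ones, with Vim at 172 CPM in the knockout and 994 CPM in the wild type, and Pax6, Prom1 and Msi1 were the higher ones. Of 8 embryonic stem cell markers 2 were higher and 4 lower of 7 tested, and they summed to 753 to 783 CPM in the knockout and 1058 to 1076 CPM in the wild type. Under 5 of 11 alternatives 1 was higher, among them without knockout library 1 or 2 or wild-type library 1 or 3. Of 9 mesoderm and fibroblast markers 2 were higher and 5 lower of 7 tested, summing to 407 to 412 CPM in the knockout and 608 to 620 CPM in the wild type. The part of such differences in cell make-up in the values of the 8 noncoding RNAs was not tested, and in these bulk samples fewer cells of a type and less RNA per cell cannot be told apart.

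Malat1 and Neat1 are printed first because they end in an unusual way. In Malat1 and in the long isoform of Neat1, the 3′ end folds back in place of a poly(A) tail. There U-rich stretches and an A-rich stretch make a triple helix that protects the RNA. A short isoform of Neat1 ends in an ordinary poly(A) tail, and the counts per gene cannot tell the isoforms apart. The sequences below are from the GENCODE M21 transcripts (GRCm38), written as DNA letters. In capitals are a U-rich stretch, TTTCTTTT, and the A-rich stretch AAAAAGCAAAA (the last 11 bases of Neat1-201). Other U-rich letters between them are not marked. The Malat1 stretch is bases 6603 to 6691 of the 6983 bases of Malat1-201, and the Neat1 stretch is bases 20677 to 20771, the last of the 20771 bases of Neat1-201.
Malat1: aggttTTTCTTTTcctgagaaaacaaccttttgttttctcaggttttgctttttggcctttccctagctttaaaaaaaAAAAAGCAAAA
Neat1: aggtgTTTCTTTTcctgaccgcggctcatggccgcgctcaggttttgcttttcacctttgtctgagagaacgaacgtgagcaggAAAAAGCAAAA
Searched on the transcript strand, with the U-rich letters within 130 bases before the A-rich letters, the longest transcript of no other gene among the 1477 long noncoding genes tested held this pair (2 of 1477, or 0.135%, with Malat1 and Neat1). Since the letters were taken from these transcripts, their own match was fixed by the search.

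Gas5, Snhg1, Snhg3 and Snhg12 are printed at their start sites, because host genes of snoRNAs often begin inside a run of pyrimidines (C or T), the 5′ TOP feature that ties an mRNA's translation to growth signals. Each sequence holds the 20 bases before the start and 40 from the start on, from RefSeq (GRCm38.p6), with the unbroken C or T run that covers the start in capitals. They lie at chr1:161035146-161035205 (+) for the second RefSeq start of Gas5, chr19:8723467-8723526 (+) for Snhg1, chr4:132353647-132353706 (−) for Snhg3 and chr4:132308658-132308717 (+) for Snhg12.
Gas5: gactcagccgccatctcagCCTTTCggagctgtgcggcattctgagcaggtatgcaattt
Snhg1: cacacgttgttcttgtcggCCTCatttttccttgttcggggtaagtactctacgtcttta
Snhg3: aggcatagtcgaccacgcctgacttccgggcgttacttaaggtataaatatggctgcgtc
Snhg12: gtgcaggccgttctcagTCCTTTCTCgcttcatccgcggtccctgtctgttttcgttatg
The run was 9 bases long in Snhg12, 6 in Gas5 and 4 in Snhg1, and runs at least as long were found at 3.03%, 7.25% and 14% of the 32851 promoters in the table for those lengths. The start of Snhg3 lay in no such run, nor did the first RefSeq start of Gas5. The E-box letters CACGTG, searched on both strands, were in none of the 7 promoter windows of 300 bases for Malat1, Gas5 (2 starts), Snhg1, Snhg3, Snhg12 and Tug1, and in 7.15% of all promoters. Snhg12 (run of 9 bases) and Snhg1 (4) rose in the knockout, while Gas5 (6, at its second start only) and Snhg3 (no run) fell. A link between run and change was not tested.

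Malat1 (ENSMUSG00000092341, GRCm38 chr19:5795690-5802672, − strand, a single exon block of 6.983 kb) was the most abundant of the 8. It stood at 1352, 1269 and 1139 CPM in the knockout libraries, against 629, 626 and 629 CPM in the wild-type libraries. The lowest knockout library was far above every wild-type library, and the wild-type libraries were almost level with each other. Mean levels were 1254 ± 107 CPM in the knockout and 628 ± 1.97 CPM in the wild type (SD, n = 3 each), a log2 fold change of 1.00 (SE 0.04, adjusted p = 1.58e-17). In size this change was at the 78.7th percentile of all genes tested.

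Neat1 (ENSMUSG00000092274, chr19:5824708-5845478, − strand, 20.771 kb) lies beside Malat1 on the same strand. Its level was 157, 153 and 138 CPM in the knockout libraries and 101, 103 and 91.0 CPM in the wild-type libraries, with no overlap. Means were 149.6 ± 10.0 CPM in the knockout and 98.4 ± 6.44 CPM in the wild type, a log2 fold change of 0.60 (SE 0.05, adjusted p = 3.25e-10). Removing the trend of the fold changes with gene length lowered this to 0.33. The log2 ratio of Malat1 to Neat1 within a library averaged 3.06 ± 0.03 in the knockout and 2.67 ± 0.10 in the wild type, a difference of 0.39. The knockout ratios were all above the wild-type ones, with a two-sided exact permutation p of 0.1, the smallest that 3 against 3 libraries allow, and 0.14 after adjustment over the 7 ratios tested.

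**Figure D1:**
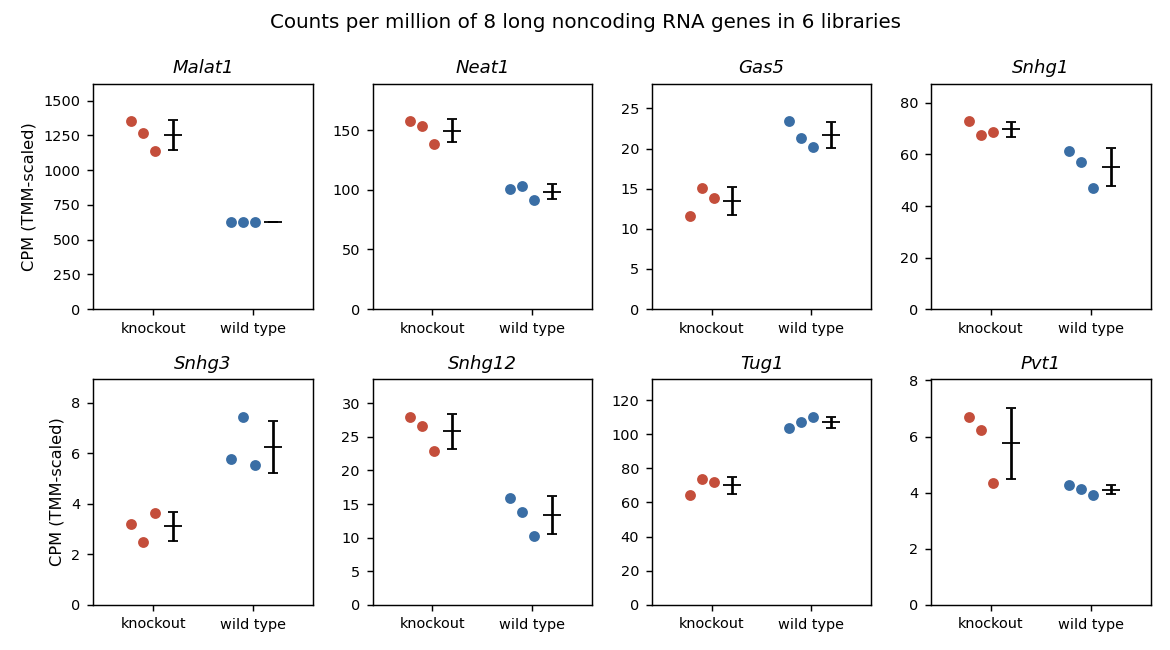
CPM in each library for the 8 noncoding RNAs, 1 panel per gene, with knockout libraries to the left of wild-type libraries; points are libraries, and the bar and whiskers are the mean and SD. In every panel the 3 knockout points and the 3 wild-type points do not overlap: they lie above the wild type for Malat1, Neat1, Snhg1, Snhg12 and Pvt1 and below it for Gas5, Snhg3 and Tug1.

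Frmd8, a coding gene 4224 bases from Neat1, fell to 42.6 CPM in the knockout, against 90.3 CPM in the wild type, a log2 fold change of -1.08 (SE 0.06, adjusted p = 6.64e-14). Gm37376, a provisional annotation of 453 bases, lies wholly inside the Malat1 exon on the other strand. It had 171, 165 and 149 CPM in the knockout and 70.4, 77.9 and 79.6 CPM in the wild type, a log2 fold change of 1.09 (SE 0.06, adjusted p = 3.64e-15). Per kb of exon it stood at 357 CPM in the knockout and 168 CPM in the wild type, higher than Malat1 itself. The counting gave reads to Gm37376 although it is enclosed by Malat1. Of 46 single-exon genes enclosed by an exon of an opposite-strand gene, 33 had at least 0.2 of the read density of that gene and 13 had less, with a median of 0.709. Whether the libraries keep the strand of an RNA is not given in the sources used here and was not tested gene by gene, so the RNAs of Gm37376 and Malat1 cannot be told apart over those 453 bases, which are 6.49% of the Malat1 exon.

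The mRNAs of paraspeckle proteins mostly fell. Of 20 tested, 14 (70.0%) were lower, 4 were higher and 2 did not pass the test, with a median log2 fold change of -0.31. Among all genes tested, 34.0% were lower and 34.5% higher. Sfpq, which encodes a core paraspeckle protein that binds Neat1, fell to 159 CPM in the knockout, against 568 CPM in the wild type, a log2 fold change of -1.84 (SE 0.04). Pspc1 fell by 1.86 and Rbm14 by 1.80 on the log2 scale, and Hnrnph1, an RNA-binding regulator of splicing, fell by 0.76. The 4 higher ones were Nono (0.13), at 531 CPM in the knockout and 485 CPM in the wild type, Dazap1 (0.24), Matr3 (0.38) and Hnrnph3 (0.48). Of Rbm14's exon bases, 8.93% are overlapped by a gene on the other strand. Of 20 mRNAs of nuclear speckle proteins tested, 11 were lower, 5 higher and 4 not called, with a median of -0.30. The splicing factors Srsf3 (-1.28), Srsf6 (-1.08) and Srsf2 (-0.99) fell, the last with 25.3% of its exon bases overlapped on the other strand, and Clk1, a kinase that phosphorylates SR proteins, rose to 456 CPM in the knockout, against 86.8 CPM in the wild type (log2 fold change 2.39, SE 0.05).

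Snhg1 (ENSMUSG00000108414, chr19:8723475-8726443, + strand, 18 annotated transcripts) is also known as the U22 host gene and was the most abundant snoRNA host of the 4. It had 72.9, 67.5 and 68.9 CPM in the knockout libraries and 61.3, 57.0 and 47 CPM in the wild-type libraries. The lowest knockout library lay above the highest wild-type one, by a small margin. Means were 69.8 ± 2.81 CPM in the knockout and 55.1 ± 7.32 CPM in the wild type, a log2 fold change of 0.34 (SE 0.08, adjusted p = 3.82e-04), the smallest of the 7 called changes. Slc3a2, a coding gene whose annotated start lies 106 bases away in the opposite orientation, also rose, to 369 CPM in the knockout, against 307 CPM in the wild type (log2 fold change 0.26, SE 0.04, adjusted p = 2.10e-06). The log2 ratio of Snhg1 to Slc3a2 differed by 0.08 between the groups, which overlapped (two-sided exact permutation p = 0.6, adjusted 0.7).

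Snhg12 (ENSMUSG00000086290, chr4:132308623-132311024, + strand) had 28.0, 26.6 and 23.0 CPM in the knockout libraries, against 15.96, 13.8 and 10.3 CPM in the wild-type libraries. Every knockout library was well above every wild-type one. Means were 25.8 ± 2.58 CPM in the knockout and 13.4 ± 2.86 CPM in the wild type, a log2 fold change of 0.94 (SE 0.14, adjusted p = 1.07e-06). Trnau1ap, a coding gene of selenoprotein synthesis that lies 739 bases past the end of Snhg12 in the opposite orientation, averaged 26.5 CPM in the knockout and 28.3 CPM in the wild type (log2 fold change -0.09, SE 0.10, adjusted p = 0.443). Within a library, the log2 ratio of Snhg12 to Trnau1ap was -0.03 ± 0.26 in the knockout and -1.07 ± 0.30 in the wild type, a difference of 1.04, with no overlap (exact permutation p = 0.1, adjusted 0.14).

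Gas5 (ENSMUSG00000053332, chr1:161034422-161038539, + strand, 25 annotated transcripts), known for building up in growth-arrested cells, fell. It had 11.6, 15.1 and 13.8 CPM in the knockout libraries, against 23.4, 21.3 and 20.2 CPM in the wild-type libraries. The highest knockout library was below the lowest wild-type library. Means were 13.5 ± 1.77 CPM in the knockout and 21.6 ± 1.62 CPM in the wild type, a log2 fold change of -0.68 (SE 0.13, adjusted p = 4.47e-05). Zbtb37, a zinc finger gene whose span overlaps that of Gas5 on the other strand without sharing exon bases, rose to 67.4 CPM in the knockout, against 39.7 CPM in the wild type (log2 fold change 0.77, SE 0.07, adjusted p = 3.98e-10). Gas5 relative to Zbtb37 gave a log2 ratio of -2.28 ± 0.17 in the knockout and -0.86 ± 0.07 in the wild type, a difference of -1.42 without overlap (exact permutation p = 0.1, adjusted 0.14).

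Snhg3 (ENSMUSG00000085241, chr4:132348014-132353686, − strand, 0.986 kb of exon in 5 blocks) was among the lowest counted of the 8, with 25, 20 and 31 reads in the knockout libraries and 49, 70 and 45 in the wild-type libraries. These were 3.22, 2.50 and 3.63 CPM in the knockout and 5.79, 7.44 and 5.52 CPM in the wild type, with no overlap. The log2 fold change was -1.004 (SE 0.24, adjusted p = 7.75e-04), of like size to that of Malat1 in the other direction but with a much larger SE. Snhg3 shares 71.5% of its exon bases with exons of Gm17300 on the other strand and 29.8% with Rcc1 and Snora73a on its own strand. Gm17300 fell to 16.6 CPM in the knockout, against 28.8 CPM in the wild type (log2 fold change -0.80, SE 0.11, adjusted p = 8.99e-07). Rcc1, which encodes the exchange factor of the Ran GTPase and overlaps Snhg3 on the same strand, fell to 62.9 CPM in the knockout, against 124 CPM in the wild type (log2 fold change -0.97, SE 0.05, adjusted p = 6.72e-15). Snhg3 relative to Rcc1 gave a log2 ratio of -4.14 ± 0.22 in the knockout and -4.21 ± 0.25 in the wild type, overlapping, a difference of 0.06 (exact permutation p = 1, the largest possible). Over the bases shared with Gm17300, the RNAs of Snhg3 and Gm17300 cannot be told apart.

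**Figure D2:**
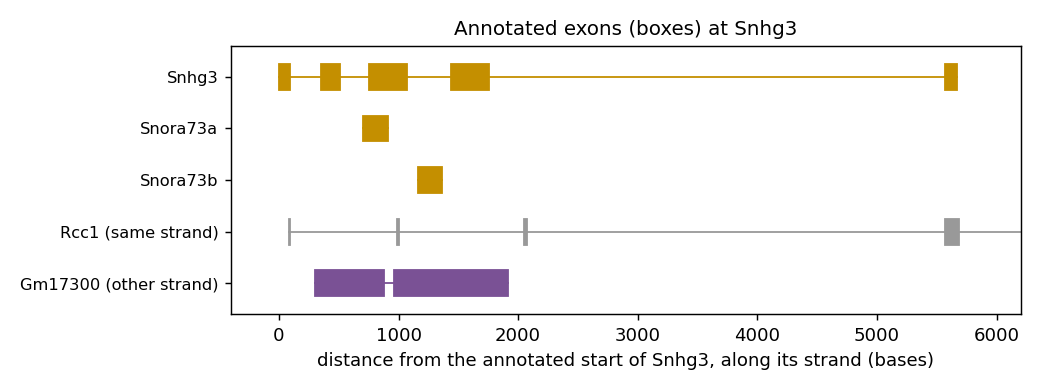
Annotated exons (boxes) at Snhg3, in bases from its annotated start along its own strand, with the snoRNA genes Snora73a and Snora73b, the start of Rcc1 on the same strand and Gm17300 on the other strand. Gm17300 exons cover 705 of the 986 exon bases of Snhg3 and all of Snora73b.

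The snoRNAs that these hosts carry were mostly not counted. The annotation has 25 identifiers of the snoRNA class inside the hosts on their strand, 10 in Gas5, 8 in Snhg1, 5 in Snhg12 and 2 in Snhg3. They make 23 separate stretches, since Snord80 and Snora16a have 2 overlapping identifiers each, and 1 in Gas5 carries a microRNA name, Mir5117. Of the 25 identifiers, 23 had 0 counts in all 6 libraries. Those 23 lie fully inside annotated exons of their host, where a read falls on both genes. Snord47, in Gas5, is shown as an example of this class, C/D box snoRNAs that guide 2′-O-methylation, with the C box TGATGA and the D box CTGA in capitals. It lies at chr1:161038082-161038158 (+), and its 77 bases come from GENCODE M21.
Snord47: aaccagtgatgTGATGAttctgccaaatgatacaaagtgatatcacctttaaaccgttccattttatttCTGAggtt
The remaining 2 are Snora73a and Snora73b in Snhg3, H/ACA type RNAs that in mammals take part in rRNA processing. They are 205 bases long each and 96.6% identical, differing at 7 bases, which are in capitals, at chr4:132352775-132352979 and chr4:132352322-132352526 (both −), and reads of such near-identical copies are uncertain.
Snora73a: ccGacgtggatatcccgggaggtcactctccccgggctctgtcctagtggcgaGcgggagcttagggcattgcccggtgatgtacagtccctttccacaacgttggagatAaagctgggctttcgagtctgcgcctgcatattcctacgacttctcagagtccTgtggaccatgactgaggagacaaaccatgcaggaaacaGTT
Snora73b: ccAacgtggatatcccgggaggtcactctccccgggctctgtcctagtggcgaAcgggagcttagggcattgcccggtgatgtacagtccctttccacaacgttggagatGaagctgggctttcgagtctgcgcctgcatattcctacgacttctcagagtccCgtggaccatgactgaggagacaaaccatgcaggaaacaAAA
Snora73b had 10, 11 and 6 reads in the knockout libraries and 20, 24 and 12 in the wild-type libraries. Its highest knockout library was below its lowest wild-type one, and the log2 fold change was -0.94 (SE 0.41, adjusted p = 0.0444). This call was lost under 8 other settings, among them DESeq2 (adjusted p = 0.107) and leaving out any one of 4 libraries (adjusted p between 0.0282 and 0.183 over all settings), and all of its bases lie in an exon of Gm17300 on the other strand. Snora73a, with 2, 0 and 2 reads in the knockout and 0, 0 and 1 in the wild type, was too low to test.

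Other noncoding hosts of snoRNAs mostly rose. Of 18 such genes listed, 15 were matched, and the others were not analysed here. Of 12 tested, 9 (75.0%) were higher, 1 was lower and 2 were not called, a median log2 fold change of 0.46. The shares over all genes tested were 34.5% higher and 34.0% lower. Zfas1, a host beside the Znfx1 gene, rose to 69.0 CPM in the knockout, against 51.2 CPM in the wild type (log2 fold change 0.43, SE 0.07). Snhg11 rose to 90.8 CPM in the knockout, against 34.7 CPM in the wild type (log2 fold change 1.39, SE 0.07), and Epb41l4aos rose by 1.53. The lower gene was Mir22hg, a microRNA host that the list also holds, at 3.17 CPM in the knockout and 22.9 CPM in the wild type (log2 fold change -2.84, SE 0.17). Snhg5 (0.04) and Snhg20 (-0.26) were the 2 not called. Of the 4 hosts described above, Snhg1 and Snhg12 therefore moved with the larger number and Gas5 and Snhg3 against it. Of 235 tested protein-coding genes that hold a snoRNA, 101 (43.0%) were higher and 80 (34.0%) lower, with a median of 0.09.

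The mRNAs of proteins that make, carry or degrade the products of the hosts also changed. Of 18 for the snoRNA complexes, 13 (72.2%) were lower and 1 was higher, with a median log2 fold change of -0.65. For comparison with this and the lists below, 34.0% of all genes tested were lower and 34.5% higher. Under 4 of 11 alternatives 2 were higher, among them without knockout library 1 or wild-type library 3. The lower ones included the methyltransferase Fbl (-0.83), the box C/D core protein Nop56 (-0.86), the box H/ACA protein Nhp2 (-0.999) and the chaperone Nolc1 (-1.15). The higher one was Dkc1 (0.24), and Nop10 (-0.06) was among those not called. Of 19 nonsense-mediated decay factors tested, 11 were lower and 6 higher, with a median of -0.44: the helicase Upf1 (-0.63), the exon junction protein Eif4a3 (-1.18) and the release factor Etf1 (-0.51) fell, and the endonuclease Smg6 rose (0.78). Of 20 genes for RNA decay, 9 were lower and 4 higher (median -0.15), with Exosc1 (-1.21), Exosc2 (-0.63) and Exosc5 (-0.68) of the exosome lower and the exonuclease Xrn1 (0.47) higher. Of 20 mRNAs with a 5′ TOP start other than ribosomal proteins, 13 were higher and 6 lower (median 0.27), with 3 lower under upper-quartile scaling and without knockout library 2 or wild-type library 2. These included the elongation factors Eef1a1, at 12806 CPM in the knockout and 8551 CPM in the wild type (log2 fold change 0.58, SE 0.01), and Eef2 (0.70), as well as Eif4b (0.72) and the ribosome protein Rack1 (0.56).

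**Figure D3:**
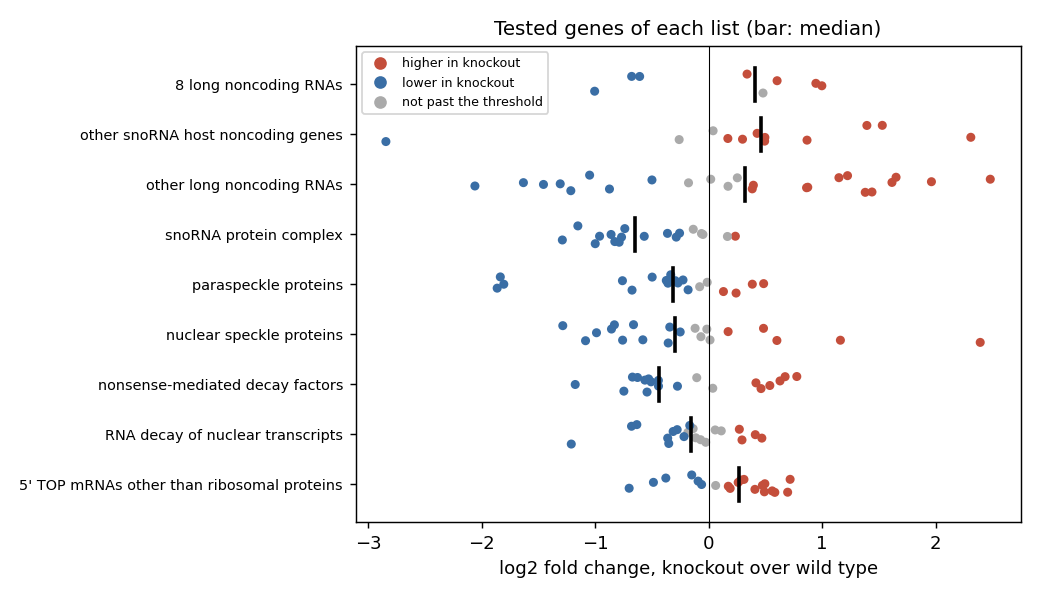
Log2 fold changes (knockout over wild type) of the tested genes in 9 lists, 1 point per gene, with a vertical bar at each list's median; red points were higher, blue points lower and grey points not past the threshold. The medians run between -0.65 for the snoRNA protein complexes and 0.46 for the other noncoding snoRNA hosts, with 0.41 for the 8 noncoding RNAs.

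Tug1 (ENSMUSG00000056579, chr11:3639785-3649673, − strand, 2 exon blocks), first known as an RNA induced by taurine in the retina, fell. It had 64.4, 73.9 and 71.9 CPM in the knockout libraries, against 104, 107 and 110.1 CPM in the wild-type libraries. The groups were far apart relative to their spread. Means were 70.1 ± 4.99 CPM in the knockout and 107 ± 3.18 CPM in the wild type, a log2 fold change of -0.61 (SE 0.06, adjusted p = 3.57e-10). Morc2a, an ATPase gene in the opposite orientation that shares 483 bases (4.96%) of the Tug1 exons, fell to 101 CPM in the knockout, against 173 CPM in the wild type (log2 fold change -0.78, SE 0.05, adjusted p = 1.44e-13). Relative to Morc2a, Tug1 had a log2 ratio of -0.53 ± 0.14 in the knockout and -0.69 ± 0.02 in the wild type, a difference of 0.17 without overlap (exact permutation p = 0.1, adjusted 0.14), which was 0.093 without knockout library 2.

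Pvt1 (ENSMUSG00000097039, chr15:62037986-62378096, + strand, 21 exon blocks) was the lowest of the 8 per kb, with 52, 50 and 37 reads in the knockout libraries and 36, 39 and 32 in the wild-type libraries. Its level was 6.70, 6.24 and 4.33 CPM in the knockout and 4.26, 4.15 and 3.93 CPM in the wild type. The lowest knockout library was just above the highest wild-type one, and the log2 fold change of 0.48 (SE 0.24) had an adjusted p of 0.0740. It was called without knockout library 3, with a log2 fold change of 0.65 and an adjusted p of 0.0220, and its adjusted p lay between 0.0220 and 0.251 over all settings. Myc, which encodes a growth-promoting transcription factor and lies 47612 bases before Pvt1, fell: it had 4.38, 2.25 and 3.16 CPM in the knockout, against 64.9, 69.1 and 69.9 CPM in the wild type, a log2 fold change of -4.38 (SE 0.13, adjusted p = 6.09e-20). Relative to Myc, Pvt1 had a log2 ratio of 0.75 ± 0.48 in the knockout and -3.89 ± 0.11 in the wild type, a difference of 4.65 without overlap (exact permutation p = 0.1, adjusted 0.14).

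**Figure D4:**
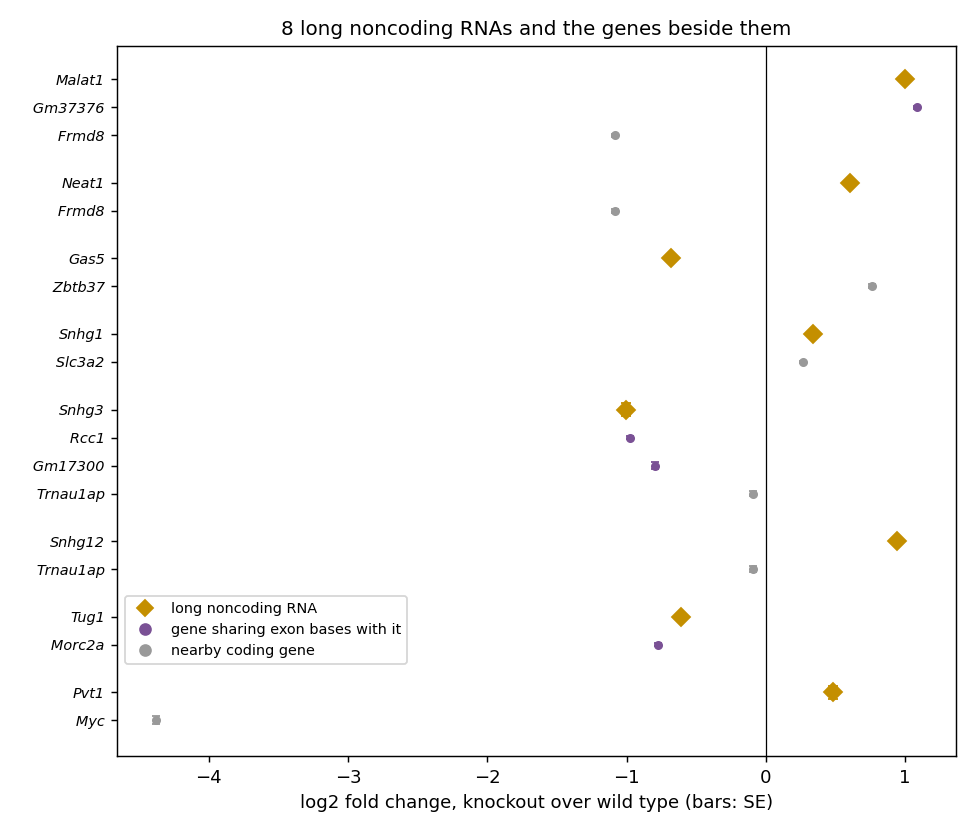
Log2 fold changes (knockout over wild type) with their SE for the 8 noncoding RNAs (diamonds), nearby coding genes described in the text and the genes that share exon bases with them. Neat1 at 0.60 stands beside Frmd8 at -1.08, Gas5 at -0.68 beside Zbtb37 at 0.77, and Pvt1 at 0.48 beside Myc at -4.38. Pairs in the same direction are Snhg3 at -1.004 with Rcc1 at -0.97, Snhg1 at 0.34 with Slc3a2 at 0.26, and Tug1 at -0.61 with Morc2a at -0.78. Snhg12 at 0.94 stands beside Trnau1ap at -0.09, which was not called.

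Set beside each other per kb of annotated exon, the 8 genes spanned a wide range of levels. That length joins the exons of all annotated transcripts of a gene. For Snhg1 (2.969 kb) and Snhg12 (2.402 kb) it was a single block over the whole gene, so that introns of spliced forms are in it. For Snhg3 it was 0.986 kb in 5 blocks, and for Neat1 the 20.771 kb of the long isoform. The order per kb therefore compares unlike lengths. Malat1 stood at 179.5 ± 15.4 CPM per kb in the knockout and 90.0 ± 0.28 in the wild type, followed in both groups by Snhg1 at 23.5 ± 0.95 in the knockout and 18.6 ± 2.47 in the wild type, and Pvt1 was last with 0.82 ± 0.18 in the knockout and 0.59 ± 0.02 in the wild type (SD, n = 3 each). Between these ends the order differed between the groups. In the knockout it ran Snhg12 (10.8), Neat1 (7.20), Tug1 (7.20), Gas5 (3.59) and Snhg3 (3.16), with the libraries of Neat1 and Tug1 and those of Gas5 and Snhg3 overlapping. In the wild type it ran Tug1 (10.98), Snhg3 (6.34), Gas5 (5.76), Snhg12 (5.56) and Neat1 (4.74), where each of the last 4 overlapped its neighbour in the order. Over exon bases that no other gene of the same strand shares, the knockout order was Tug1 (7.71) before Neat1 (7.34) and Snhg3 (4.50) before Gas5 (4.37), the reverse of the order above for both pairs, and the wild-type order was unchanged. The 8 genes together held 0.169, 0.162 and 0.147% of the gene counts in the knockout libraries and 0.0937, 0.0933 and 0.0911% in the wild-type libraries. Malat1 made up 77.9 to 79.7% of the counts of the 8 in the knockout and 66.6 to 68.6% in the wild type.

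**Figure D5:**
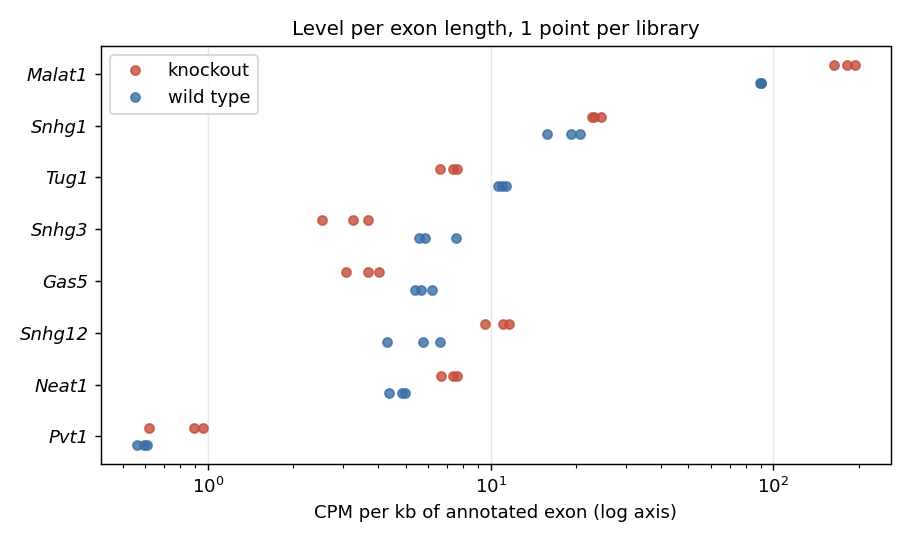
CPM per kb of annotated exon on a log axis, 1 point per library, with knockout points above wild-type points for each gene. Malat1 lies at 163 to 194 in the knockout and 89.6 to 90.1 in the wild type, and Pvt1 lies at 0.62 to 0.96 in the knockout and 0.56 to 0.61 in the wild type.

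By the root mean square difference between log2 CPM deviations over the 6 libraries, genes most like Malat1 among 11117 with a mean of at least 5 CPM were Ltbp3 (0.043), Sept2 (0.043) and Pan2 (0.048), and among those most like Snhg3 were Slc2a4rg-ps (0.092) and Pgp (0.094). Their log2 fold changes were 1.02, 1.02 and 1.01 for the first 3 and -0.90 and -0.98 for the others. Because these genes were chosen by deviations over the same 6 libraries, like fold changes followed from the choice. Among other long noncoding RNAs listed, 24 were tested, with 12 higher, 8 lower and a median log2 fold change of 0.32. Firre, an X-linked RNA that anchors chromatin, rose to 143 CPM in the knockout, against 78.2 CPM in the wild type (0.87, SE 0.06), and Lncenc1, an RNA of naive stem cells, rose by 0.86. H19, an imprinted RNA, fell to 57.2 CPM in the knockout, against 118 CPM in the wild type (-1.05, SE 0.05). Xist, which coats the inactive X chromosome, was at 51.4 CPM in the knockout and 22.05 CPM in the wild type (1.22, SE 0.09), with 11.5% of its exon bases overlapped on the other strand. Over all 1477 long noncoding genes tested, 25.9% were higher and 26.8% lower.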

How the data were processed

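RNA was sequenced in 6 libraries, 3 enhancer cluster-KO and 3 wild type. The authors deposited 1 table of whole-number read counts per Ensembl gene for each library, with no normalisation. Per the submitters' processing notes, reads were handled with HISAT2 2.1.0, HTSeq 0.9.1 and DESeq2 1.18.1 on genome build mm10. The annotation release, read layout and strand setting are not given in the sources used here.

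Symbols, exons and overlaps came from GENCODE M21 (GRCm38, the build of mm10), which matched 52489 of 52636 identifiers. HTSeq's tallies were left out of library sizes and tests: reads on no feature were 42.3 to 43.5% of a library, against 36.0 to 38.4% assigned to genes. A strand setting in the counting that the libraries do not have would put part of the reads of a gene on no feature, so that a count would be part of its reads; whether this happened was not tested. The other tallies were 13.8 to 15.0% for multiply aligned, 2.86 to 3.53% for poorly aligned, 1.23 to 2.31% for unaligned and 0.745 to 0.902% for ambiguous reads. In edgeR 4.0.16 (R 4.3.3), filterByExpr at a minimum count of 10 left 15816 genes, and TMM scaled the libraries. Knockout against wild type was tested by quasi-likelihood F tests with Benjamini-Hochberg adjustment over all tested genes, at 0.05. A fold change divides knockout by wild type, its SE follows from the F statistic, and CPM is TMM-scaled. Ratios are log2 of CPM plus 0.5, tested by two-sided exact permutation over libraries. Alternatives were DESeq2 1.42.0, limma-voom 3.58.1, RLE and upper-quartile scaling, other filters, a replicate block, trends with length and GC removed, abundant, mitochondrial and rRNA-repeat genes left out, and each library left out in turn. On counts simulated with the library sizes and spread of this comparison over 15816 genes, 70% of genes changed by 1.5-fold and 86% of those changed by 2-fold were recovered. The simulation changed only a small part of the genes, whereas 68.6% were called in the data. Its rates of recovery may therefore differ from those in the data. No pair of libraries of a group agreed within sampling noise.

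Named are all 8 genes, tested snoRNAs inside them, their nearest coding genes, ratio partners, up to 4 genes per list with the smallest adjusted p, and the 3 genes of most like pattern for the largest called change in each direction. Fabp7, Sox1, Sox3, Pax6, Msi1, Snord80, Snora16a, Mir5117, Snhg5, Snhg20, Gm17300, Gm37376 and Snora73a fall outside that rule and were named after their values were seen. The same holds for Dkc1, Nop10, Nono, Dazap1, Hnrnph3 and Matr3. The 8 genes and all lists were chosen with earlier results of these data known. Some results under that rule are not reported here.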

Additional observations from a re-analysis of the deposited data

How the results depend on the processing

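Each of the 7 called genes kept its direction under all alternatives run, and its call under all that gave a test. Over these, the log2 fold change ranged between 0.89 and 1.06 for Malat1, 0.33 and 0.66 for Neat1, -0.78 and -0.58 for Gas5, 0.23 and 0.41 for Snhg1, -1.13 and -0.86 for Snhg3, 0.79 and 1.08 for Snhg12 and -0.75 and -0.55 for Tug1. With the length trend removed Neat1 was at 0.33 and Tug1 at -0.72. With a replicate block and the GC trend removed Malat1 was at 0.89 and Tug1 at -0.75; the cause was not tested. Pvt1 ranged between 0.36 and 0.65 with 1 library left out (adjusted p between 0.0220 and 0.251), and was called without knockout library 3 (0.65). The Snhg3 to Rcc1 difference ranged between -0.045 and 0.21 with 1 library left out, reversing without knockout library 3 (-0.045) and without wild-type library 1 (-0.015), the Tug1 to Morc2a difference between 0.093 and 0.23, and the Snhg1 to Slc3a2 difference ranged between -0.019 and 0.18, reversing without wild-type library 3 (-0.019).

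The replicate numbers did not pair the libraries, since same-numbered libraries had correlations of deviations of 0.013, 0.005 and -0.013. A fit with the replicate block gave 10862 changed genes against 10848 without it, with Malat1 at 0.99 and Pvt1 at 0.47 (adjusted p = 0.0828), and changed the call of none of the 8 genes. Over 15 alternatives the number of changed genes lay between 9923 and 11424. Of 308 list counts under alternatives, 296 stayed within 1.5 times their first value. The other 12 were the lower 5′ TOP mRNAs (3 against 6), the higher snoRNA complex genes (2 against 1) and the higher stem cell markers (1 against 2). Depth limits Snhg3 and Pvt1, which had 20 to 70 reads a library.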
